A study of Mus musculus with 16 samples.

Results

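The genes described here encode the alpha, beta and gamma subunits of the heterotrimeric G proteins and the RGS proteins (regulators of G protein signalling). They were chosen by symbol, as the genes named Gna, Gnb, Gng or Rgs followed by a member's letter or number, which gave 52 of the 48709 genes counted. The 52 comprised 16 alpha, 5 beta, 10 gamma and 21 RGS genes. Gngt1, Gngt2, Gnb1l, Rgs7bp and Rgs9bp carry other names and were treated as partners. RNA was sequenced from synaptosomes of the cerebral cortex, in which broken-off axon endings have closed again and often carry a piece of the receiving membrane, and from the unfractionated homogenate. The 16 libraries formed 4 groups of 4: synaptosomes (SYN) of mice aged 3 weeks, of mice aged 5 months and of mice aged 19 months, and total homogenate (TH) of mice aged 5 months. All mice were C57BL/6, with no treatment or altered gene named, and the 3 ages of SYN were given as biological replicates.

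An activated receptor makes the alpha subunit exchange GDP for GTP, after which alpha and the beta-gamma dimer act on separate effectors. Alpha subunits of the Gs class stimulate adenylyl cyclase, those of the Gi/o class mostly inhibit it, and those of the Gq class activate phospholipase C beta. Beta-gamma dimers open GIRK potassium channels and inhibit presynaptic calcium channels. RGS proteins speed up GTP hydrolysis by alpha subunits, mainly of the Gi/o and Gq classes, and so shorten the signal.

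Library totals ran from 10.6 M to 21.7 M counts, of which 32152 to 71688 fell on the 52 genes. Levels are given in CPM, which are counts brought to a common library total, here with factors from the trimmed mean of M-values (TMM) over all 16 libraries. Of the counts outside mitochondrial rRNA, the members made up 0.473% ± 0.0105 in TH and 0.442% ± 0.0104 in SYN of the same age (SD, n = 4 libraries each). The 8 neuron markers summed to between 5415 and 6523 CPM in SYN and between 4376 and 4690 CPM in TH, and none of them was at 0. Malat1, a nuclear RNA, had 15579 to 18357 CPM in TH and 942 to 4796 CPM in SYN of the same age, and mitochondrial rRNA took 17.6 to 22.0% of the counts in TH and 36.1 to 45.3% in that SYN group. The part of these differences in the results of SYN against TH was not tested. A pair of libraries stood apart: 5 months SYN replicate 4 had 4796 CPM of Malat1, against 493 to 1671 CPM in the other SYN libraries, and 19 months SYN replicate 1 had 52.3% of its counts on mitochondrial rRNA, against 32.9 to 33.6% in the other libraries of its age. Without both of them the calls named below held, apart from those for which a value without them is given. Members at the edge of detection were Gnat1, Gnat2 and Gnat3 (transducins and gustducin of sensory cells), Gna14, Gnb3, Gng8, Rgs1, Rgs13, Rgs18 and Rgs21. They had at most 16 counts in any library, and they were not tested, nor was Gng10 between ages.

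In synaptosomes at 5 months, transcripts of most alpha subunits and of 3 gamma subunits were higher than in homogenate with TMM scaling, while most of the RGS transcripts that differed were lower. With the total outside mitochondrial rRNA as the scale, 4 alpha genes were higher and 3 lower. Of the 42 members tested in SYN against TH, 15 were higher and 11 lower at an edgeR adjusted p under 0.05. Over all 17374 genes tested, 24.5% were called higher and 25.6% lower (50.1% in either direction), so the count over all members was not far from the background. The SYN and TH values did not overlap for any of these 26 members, nor for 47.9% of all genes tested. The median log2 fold change was 0.13 for the members and -0.05 for all genes tested. Among the alpha genes 9 of 12 tested were higher and 0 lower, with a median of 0.58. In the RGS family 2 of 17 tested were higher and 8 lower. Upper-quartile scaling moved the median of all genes by -0.14, and the members then split into 13 higher and 14 lower, while over all genes the share of calls that were higher went from 48.8% to 37.9%. Upper-quartile scaling left 7 alpha genes higher and 1 lower. These libraries are bulk RNA, in which less material from a cell type and less RNA per cell cannot be told apart.

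The number of members higher in SYN depended on the scaling. The members' summed level was 3022 ± 61.7 CPM in SYN and 2437 ± 57.1 CPM in TH with TMM (SD, n = 4 libraries each), whereas their share of the counts outside mitochondrial rRNA, given above, was lower in SYN. With that total as the library size and no TMM factors, an alternative chosen after seeing the data, the median of all genes moved by -0.44, from -0.05 to a value of -0.49. Then 8 members were higher and 20 lower, against 11.4% and 48.3% of all genes tested, and 19.2% of all calls were higher. The alpha genes kept a median above 0, at 0.14, and the RGS genes split into 1 higher and 12 lower. Gnai2, Gna11, Gna12, Gna13, Gng7, Gng12, Gng13 and Rgs10 were still called higher, from log2 0.30 for Gna11 to 1.26 for Gng7, and each of the 11 lower members was still called lower. Gnas, Gnal, Gnaz, Gnb1 and Rgs20 were no longer called (log2 0.03 to 0.17, edgeR adjusted p from 0.0802 to 0.869). Gnao1 turned to -0.15 (adjusted p = 0.0536) and Gnaq to -0.21, a call in the lower direction (adjusted p = 0.0120). Gnai1, Gnai3, Gnb2, Gng3, Rgs4, Rgs6, Rgs7 and Rgs8, not called with TMM, were called lower (log2 -0.28 to -0.68, edgeR adjusted p from 6.66e-06 to 0.0314), with Gnb2, Rgs6 and Rgs8 moving from above 0. The fold changes that follow are those with TMM.

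**Figure D1:**
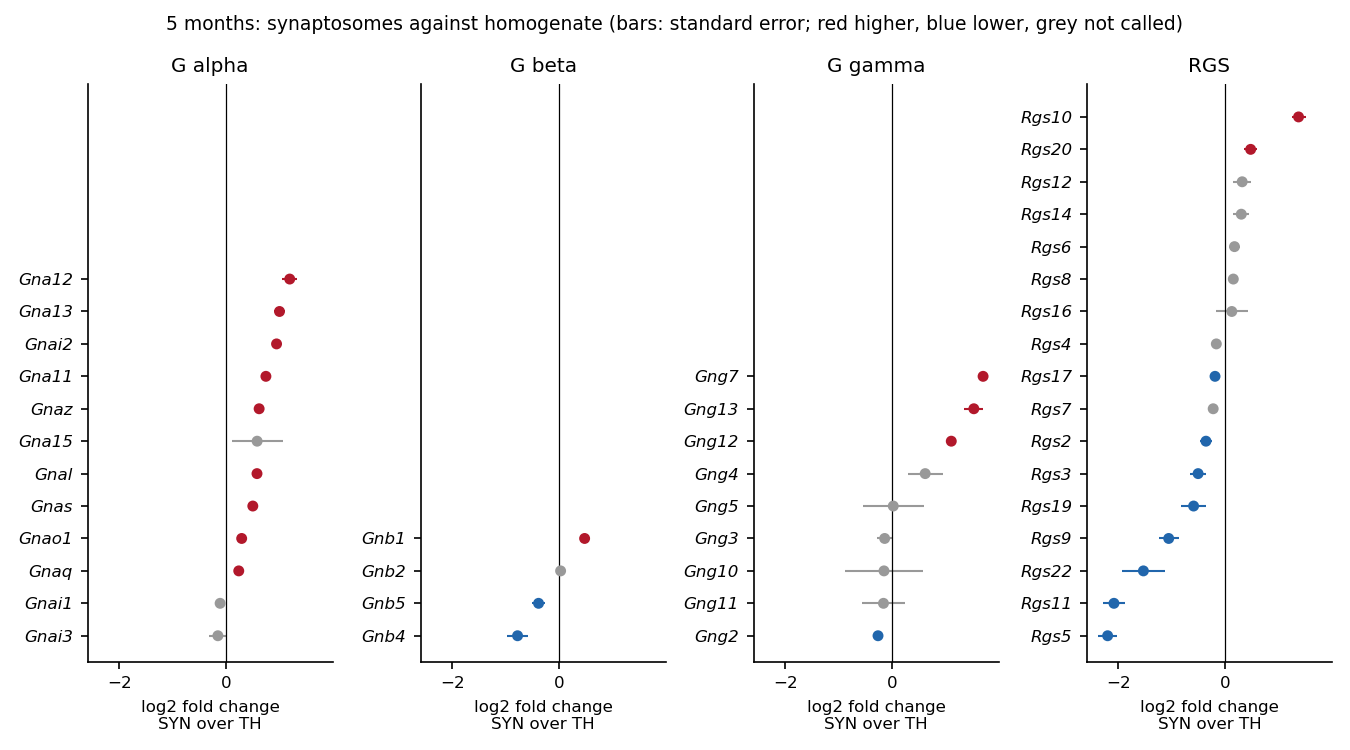
Log2 fold change of SYN over TH at 5 months for the 42 tested members, in 4 panels by family, with the standard error of the edgeR fit as bars. Red points were called higher, blue points lower and grey points were not called. In the alpha panel 9 of 12 points are red, and in the RGS panel 8 of 17 are blue, with TMM scaling, while with the total outside mitochondrial rRNA Gnao1 and Gnaq lie below 0, and 4 alpha genes are called higher and 12 RGS genes lower.

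Both G12 alpha genes were higher in synaptosomes. Gna12, a widely expressed alpha subunit, had 42.7, 46.5, 59.5 and 42.3 CPM in SYN and 22.0, 16.8, 24.8 and 22.2 CPM in TH. Every SYN library lay above every TH library, and the fold was 2.28 (log2 fold change 1.19, SE 0.14, edgeR adjusted p = 4.4e-06). An opposite-strand gene, Amz1, shares 13.3% of the exon bases of Gna12, and the strand setting of the counting is not given in the sources used here. Gna13, its close relative, had 56.6, 53.5, 53.3 and 50.5 CPM in SYN against 25.5, 26.0, 25.7 and 32.3 CPM in TH, which is 2.00-fold (log2 1.00, SE 0.10, edgeR adjusted p = 7.28e-07).

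Of the 5 Gi/o alpha genes tested, 3 were higher. Gnai2, the widely expressed inhibitory alpha subunit, had 154, 149, 155 and 139 CPM in SYN and 77.8, 78.2, 82.0 and 80.0 CPM in TH. The groups did not overlap, and SYN was 1.92-fold higher (log2 0.94, SE 0.07, edgeR adjusted p = 4.3e-08). Gnaz, a slowly hydrolysing alpha subunit found mainly in neurons and platelets, had 97.6, 91.7, 94.9 and 90.8 CPM in SYN and 64.5, 71.2, 60.2 and 54.3 CPM in TH (log2 0.62, SE 0.09, edgeR adjusted p = 4.43e-05). Gnao1, which encodes Go, an abundant G protein of neuronal membranes, had 489.6, 527, 453 and 485 CPM in SYN and 401, 420.1, 413 and 402 CPM in TH. That step was small, 1.22-fold (log2 0.29, SE 0.07, edgeR adjusted p = 0.00258), upper-quartile scaling brought it to a log2 fold change of 0.15 with an adjusted p of 0.067, and the total outside mitochondrial rRNA turned it to -0.15. Gnai1 (log2 -0.11, SE 0.09, called lower with upper-quartile scaling, adjusted p = 0.0208) and Gnai3 (log2 -0.15, SE 0.17) were not called with TMM, and both were called lower with the total outside mitochondrial rRNA.

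The Gs and Gq classes held the remaining higher alpha genes. Gnas, which encodes the stimulatory alpha subunit, had 433, 448, 450.1 and 422 CPM in SYN and 293, 324, 325 and 328 CPM in TH, with no overlap (log2 0.50, SE 0.07, edgeR adjusted p = 2.39e-05). The opposite-strand genes Gm20721 and Nespas share 13.1% and 8.83% of the exon bases of Gnas. The limit of the unknown strand setting, given above for Gna12, holds here too. Gnal encodes Golf, the form that stimulates cyclase in the striatum and in olfactory neurons, and it had 185, 196, 207 and 217 CPM in SYN against 122, 141, 137 and 152 CPM in TH. The groups of Gnal did not overlap (1.49-fold, log2 0.58, SE 0.08, edgeR adjusted p = 3.65e-05). Gna11, a Gq class subunit, had 64.4, 60.2, 59.7 and 51.6 CPM in SYN and 39.7, 36.2, 34.4 and 33.9 CPM in TH (log2 0.75, SE 0.09, edgeR adjusted p = 1.04e-05). Gnaq itself had 133, 117, 124 and 113 CPM in SYN and 108, 104, 104 and 107 CPM in TH. It was only slightly higher with TMM scaling (log2 0.24, SE 0.07, edgeR adjusted p = 0.0129) and lower with the total outside mitochondrial rRNA (log2 -0.21), and was not called with DESeq2 size factors (adjusted p = 0.0527), in the DESeq2 Wald test (adjusted p = 0.0557) or with upper-quartile scaling (adjusted p = 0.274). Gna15 lay between 0.485 and 2.57 CPM and was not called.

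The beta genes split into 1 higher and 2 lower, and into 0 higher and 3 lower with the total outside mitochondrial rRNA. Gnb1, the main brain beta subunit, had 429.6, 404, 388 and 378 CPM in SYN and 301, 314, 292 and 271 CPM in TH, which is 1.39-fold higher (log2 0.48, SE 0.07, edgeR adjusted p = 9.18e-05). Gnb2 had 34.9 to 38.4 CPM in SYN and 32.7 to 39.9 CPM in TH, ranges that overlapped, and was not called with TMM (log2 0.03, SE 0.09). Gnb4 had 6.16, 4.39, 8.65 and 8.15 CPM in SYN and 11.9, 12.8, 11.1 and 12.4 CPM in TH, with every SYN library below every TH library (1.72-fold lower, log2 -0.78, SE 0.19, edgeR adjusted p = 0.00386). Gnb5 is the beta subunit that pairs with RGS proteins of the R7 group in place of a gamma subunit. It was lower in SYN, at 27.8, 26.5, 23.2 and 21.5 CPM against 32.4, 37.3, 34.5 and 28.1 CPM in TH (log2 -0.39, SE 0.12, edgeR adjusted p = 0.0126), and was not called without TH replicate 2 (adjusted p = 0.0502).

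Among the gamma genes, 3 of 9 tested were higher and 1 lower. Gng7, known for its place in striatal Golf signalling, had 138, 162, 159 and 162 CPM in SYN and 43.0, 53.7, 50.8 and 48.1 CPM in TH. The lowest SYN library was far above the highest TH library, and the 3.25-fold difference (log2 1.70, SE 0.09, edgeR adjusted p = 1.98e-09) was the largest upward step of any member. Gng13, best known from taste and olfactory cells, had 12.2, 16.7, 14.5 and 11.3 CPM in SYN and 5.47, 5.13, 4.96 and 3.90 CPM in TH (2.88-fold, log2 1.53, SE 0.18, edgeR adjusted p = 5.35e-06). The opposite-strand gene Chtf18 shares 51.6% of the exon bases of Gng13, so without strand their reads could not be told apart.

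Gng12, a widely expressed gamma subunit, had 50.7, 51.2, 49.3 and 47.3 CPM in SYN and 22.2, 23.4, 23.5 and 25.5 CPM in TH. The SYN and TH values of Gng12 each stayed within a narrow band, 2.15-fold apart (log2 1.10, SE 0.09, edgeR adjusted p = 7.93e-08). Gng2 was lower in SYN, at 40.7, 40.4, 45.1 and 39.8 CPM against 46.8, 48.4, 52.0 and 57.3 CPM in TH (log2 -0.27, SE 0.09, edgeR adjusted p = 0.0205), and was not called without TH replicate 3 (adjusted p = 0.0556) or TH replicate 4 (adjusted p = 0.0637). Gng3, a neuronal gamma subunit, was not called (log2 -0.14, SE 0.14). Its exons share 23.4% of their bases with the opposite-strand gene Bscl2. Gng4 varied widely within each fraction, with 49.1, 53.4, 38.3 and 24.1 CPM in SYN and 27.5, 40.1, 25.8 and 16.4 CPM in TH. It was not called (log2 0.62, SE 0.33, edgeR adjusted p = 0.165), but it was called without SYN replicate 4 (log2 0.79, adjusted p = 0.0369) or without TH replicate 2 (log2 0.86, adjusted p = 0.0456), and with the replicate number as a block (log2 0.63, adjusted p = 0.000195). Gng5, Gng10 and Gng11 lay at or below 2.86 CPM in these 8 libraries and were not called. Gng10 shares 72.0% of its exon bases with the same-strand gene Gm20503 and stays uncertain for that reason.

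Marker lists of other cells and regions moved with several of these genes. The 12 striatal neuron markers summed to 771 to 963 CPM in SYN and 457 to 574 CPM in TH, 10 of them higher and 1 lower, beside Gnal and Gng7. The 8 olfactory sensory neuron markers summed to 16.4 to 31.7 CPM in SYN and 7.38 to 14.3 CPM in TH, with 2 of 5 tested higher, beside Gng13 and Gnal. Astrocyte markers summed to 6626 to 7647 CPM in SYN and 2942 to 3524 CPM in TH, all 9 higher, and microglia markers to 220 to 256 and 105 to 113 CPM, all 10 higher, beside Gnai2, Gna13 and Gng12. Oligodendrocyte markers summed to 2231 to 2764 CPM in SYN and 1498 to 1670 CPM in TH, with 5 of 8 higher, and precursor markers to 131 to 148 and 75.6 to 87.4 CPM, with 5 of 6 higher. With the total outside mitochondrial rRNA, all 9 astrocyte and all 10 microglia markers were still higher, while 4 striatal markers were higher and 2 lower, and 2 oligodendrocyte and 2 precursor markers were higher. No marker in these 6 lists was at 0 in a whole group, and their part in the results was not tested.

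**Figure D2:**
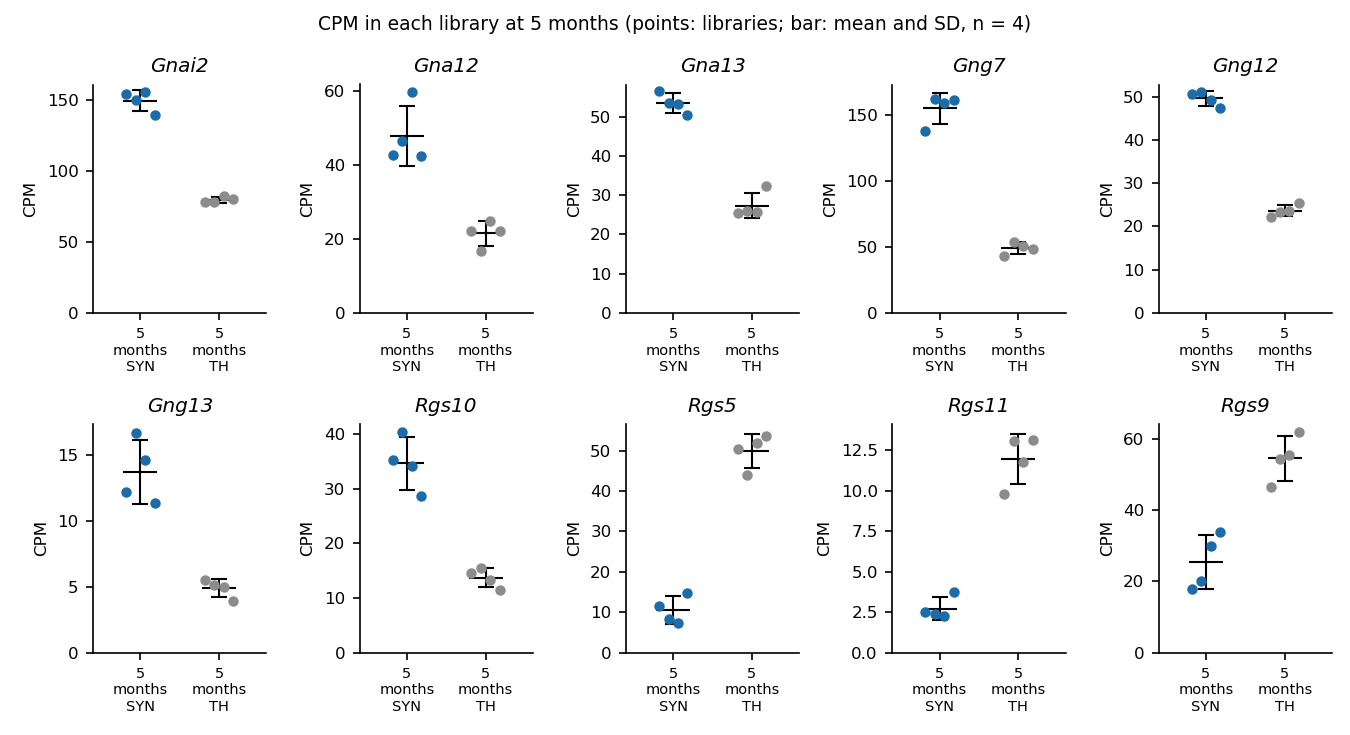
CPM in each library of SYN (blue) and TH (grey) at 5 months for 10 members, on linear axes from 0, with the mean and SD of 4 libraries. The points of SYN lie above those of TH for Gnai2, Gna12, Gna13, Gng7, Gng12, Gng13 and Rgs10, and below them for Rgs5, Rgs11 and Rgs9.

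Of the RGS genes of the small R4 group, 3 were lower in SYN and 0 higher among 6 tested. Rgs5, a gene known from pericytes, had 11.5, 8.33, 7.27 and 14.8 CPM in SYN and 50.3, 43.9, 52.0 and 53.6 CPM in TH. The groups were widely separated, at 4.60-fold lower in SYN (log2 -2.20, SE 0.18, edgeR adjusted p = 5.38e-07), the largest downward step of any member. All 9 endothelial markers (12.4 to 43.6 CPM summed in SYN, 145 to 230 CPM in TH) and 7 of 10 mural markers (32.3 to 41.7 against 51.4 to 119.9 CPM) were lower as well, with none at 0 in a group, and their part in the step of Rgs5 was not tested. Rgs2, an inhibitor of Gq signalling induced by activity, had 16.5, 14.8, 15.7 and 16.7 CPM in SYN and 21.8, 21.6, 20.1 and 20.4 CPM in TH (log2 -0.36, SE 0.11, edgeR adjusted p = 0.0121). Rgs3 had 5.61, 6.17, 6.79 and 6.43 CPM in SYN and 9.90, 8.84, 8.82 and 8.98 CPM in TH (log2 -0.51, SE 0.16, edgeR adjusted p = 0.0139).

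Rgs4 was the most abundant RGS transcript per kilobase of exon in both fractions. Its 162, 143, 141 and 140.2 CPM in SYN stood against 161, 164, 182 and 169 CPM in TH, and the difference was not called (log2 -0.17, SE 0.07, edgeR adjusted p = 0.0714). It was called lower with DESeq2 size factors (adjusted p = 0.0201), the DESeq2 Wald test (adjusted p = 0.00752), upper-quartile scaling (adjusted p = 0.00234) and without SYN replicate 1 (adjusted p = 0.0217). Rgs8 (log2 0.15) and Rgs16 (log2 0.12) were not called.

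The R7 group, whose proteins are stabilised by Gnb5 and act on Gi/o, held a pair of strongly lower genes. Rgs11 had 2.50, 2.38, 2.26 and 3.75 CPM in SYN and 9.79, 13.1, 11.8 and 13.1 CPM in TH (4.24-fold lower, log2 -2.08, SE 0.20, edgeR adjusted p = 9.5e-07). Rgs9, the striatal and retinal member, had 17.9, 20.0, 30.0 and 33.7 CPM in SYN and 46.4, 54.3, 55.4 and 61.8 CPM in TH (2.08-fold lower, log2 -1.06, SE 0.19, edgeR adjusted p = 0.000634). The striatal marker sum and Gng7, given above, were higher in SYN with TMM, and their relation to the level of Rgs9 was not tested. Rgs6 (log2 0.17, SE 0.11) and Rgs7 (log2 -0.23, SE 0.10, edgeR adjusted p = 0.0616) were not called, and Rgs7 was called lower with DESeq2 size factors (adjusted p = 0.0228), the DESeq2 Wald test (adjusted p = 0.0194), upper-quartile scaling (adjusted p = 0.00589), the replicate number as a block (adjusted p = 0.0411) and without TH replicate 2 (adjusted p = 0.0376).

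In the R12 group, Rgs10 went the other way. Rgs10, a short RGS protein abundant in microglia, had 35.3, 40.4, 34.1 and 28.7 CPM in SYN and 14.7, 15.5, 13.4 and 11.4 CPM in TH. SYN was 2.58-fold higher with no overlap (log2 1.37, SE 0.13, edgeR adjusted p = 7.33e-07), beside the microglia marker sums given above. Rgs12 (log2 0.31, SE 0.17) and Rgs14 (log2 0.30, SE 0.15) were not called, and Rgs12 was called higher without SYN replicate 1 (adjusted p = 0.00838).

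The RZ group was mixed. Rgs20, which acts on Gnaz, had 17.5, 18.8, 15.6 and 18.1 CPM in SYN and 12.6, 11.5, 14.3 and 13.3 CPM in TH (log2 0.47, SE 0.12, edgeR adjusted p = 0.00517). Rgs17 had 67.1, 62.7, 68.5 and 66.7 CPM in SYN and 79.9, 79.0, 77.0 and 74.8 CPM in TH (log2 -0.19, SE 0.07, edgeR adjusted p = 0.0394) and was not called without SYN replicate 2 (adjusted p = 0.0856) or TH replicate 1 (adjusted p = 0.105), 2 (adjusted p = 0.0854) or 3 (adjusted p = 0.0803), with no filter (adjusted p = 0.0728) or with all 16 libraries in the fit (adjusted p = 0.0532). Rgs19 had 4.68, 3.64, 2.42 and 3.39 CPM in SYN and 5.09, 5.53, 5.51 and 5.75 CPM in TH (log2 -0.59, SE 0.23, edgeR adjusted p = 0.0426) and was not called without any 1 of SYN replicates 2, 3 and 4 or TH replicates 1 to 4, with adjusted p from 0.0546 to 0.0959, nor with no filter (adjusted p = 0.0742) or with the replicate number as a block (adjusted p = 0.0567). Rgs22, a large RGS protein outside these groups, was near the detection limit, at 0.536 to 1.29 against 2.23 to 3.35 CPM (log2 -1.53, SE 0.40, edgeR adjusted p = 0.00482).

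Levels of different genes were compared per kilobase of annotated exon. That length covers all annotated exons of a gene (11053 bases for Gnao1, 11186 for Gnas and 3779 for Gnai2), not the transcripts present. The order depends on it: in mean CPM of 5 months SYN, Gnao1 (489) and Gnas (438) lay well above Gnai2 (149). In 5 months SYN the alpha order began with Gnao1 (44.2 CPM per kilobase), Gnai2 (39.5), Gnas (39.2) and Gnal (34.9), and the ranges of the first 3 overlapped in turn. In TH it began with Gnao1 (37.0), Gnas (28.4), Gnal (24.0) and Gnai1 (23.6), ahead of Gnai2 (21.0). Gnb1 led the beta genes by far in both fractions, at 93.7 CPM per kilobase in SYN and 69.0 in TH. Among gamma genes Gng7 (41.0) led Gng3 (20.2) in SYN without overlap, whereas Gng3 (22.9) led Gng7 (12.9) in TH. Among RGS genes Rgs4 (47.3) and Rgs10 (20.2) led in SYN, and Rgs4 (54.5) and Rgs5 (10.99) in TH.

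Genes upstream and downstream of the G proteins were taken from a pair of lists. Of 21 tested effectors, 15 were higher in SYN and 3 lower (85.7% called, against 50.1% of all genes), with a median log2 fold change of 0.65. With the total outside mitochondrial rRNA 12 were higher and 4 lower. By adjusted p, the adenylyl cyclases Adcy1 (log2 2.04, SE 0.09, edgeR adjusted p = 5.11e-10) and Adcy5 (log2 1.92, SE 0.10, edgeR adjusted p = 2.19e-09) led this list. Next in that order were Prex2 (log2 1.22, SE 0.08, edgeR adjusted p = 1.17e-08), a Rac exchange factor that beta-gamma dimers activate, and the GIRK channel subunit Kcnj9 (log2 0.89, SE 0.08, edgeR adjusted p = 5.33e-07). By fold change, Adcy9 (log2 1.19), Adcy3 (0.98), Adcy2 (0.93) and Prex1 (0.92) also stood above Kcnj9. The effectors that were lower included Plcb4 (log2 -0.41, SE 0.08, edgeR adjusted p = 0.000572) and Adcy4 (log2 -2.73, SE 0.62, edgeR adjusted p = 0.0019). Arhgef1 was lower too (log2 -0.99, SE 0.16, edgeR adjusted p = 0.000159). Of 19 tested regulators and partners, 8 were higher and 2 lower, with a median of 0.21. The 52.6% called was near the 50.1% over all genes, and with the total outside mitochondrial rRNA the split turned to 4 higher and 8 lower. Those higher included the receptor kinase Adrbk1 (log2 1.42, SE 0.08, edgeR adjusted p = 3.13e-09), the arrestin Arrb1 (log2 1.17, SE 0.07, edgeR adjusted p = 5.6e-09) and the R7-binding receptor Gpr158 (log2 1.09, SE 0.08, edgeR adjusted p = 6.7e-08). The second arrestin, Arrb2, was lower (log2 -0.66, SE 0.21, edgeR adjusted p = 0.0165). So was Ccdc88a (log2 -0.41, SE 0.07, edgeR adjusted p = 0.000221).

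Between ages, the calls among these genes lay almost wholly between 3 weeks and the later ages. In synaptosomes of 5 months against 3 weeks, 2 of 41 tested members were higher and 7 lower, where 13.3% of all 15344 genes tested were called higher and 11.3% lower (24.6% in either direction). In 19 months against 3 weeks, 2 were higher and 10 lower, against a background of 10% and 9.44% (19.4% in either direction). In 19 months against 5 months, 1 was higher and 0 lower, against 0.13% and 0.169% (0.3% in either direction). There 8 members had an unadjusted p under 0.05 in edgeR, against 2103 of all 15344 genes tested. The DESeq2 Wald test also called 1 member higher and 0 lower, against 101 higher and 196 lower over all genes. Groups did not overlap for 9 members at 5 months against 3 weeks (22.8% of all genes tested), for 4 at 19 months against 5 months (8.16%) and for 14 at 19 months against 3 weeks (22.9%). With the total outside mitochondrial rRNA the all-gene median moved by -0.02, 0.06 and 0.04 in these comparisons, the members split into 1 higher and 8 lower, 1 and 0, and 2 and 8, and of all genes 50 rather than 20 were higher and 8 rather than 26 lower at 19 months than at 5 months. The 3 comparisons share their libraries, so their counts are not independent of each other.

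Rgs4, a regulator of Gi/o and Gq signalling that is prominent in cortical neurons, fell most firmly. It had 241, 284, 326 and 302 CPM at 3 weeks, 162, 143, 141 and 140.2 CPM at 5 months, and 131, 120.1, 130.5 and 144 CPM at 19 months. The lowest library of 3 weeks lay well above the highest of either later age. The level was 1.93-fold lower at 5 months than at 3 weeks (log2 -0.95, SE 0.10, edgeR adjusted p = 3.27e-08) and 2.17-fold lower at 19 months than at 3 weeks (log2 -1.12, SE 0.10, edgeR adjusted p = 2.35e-09).

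**Figure D3:**
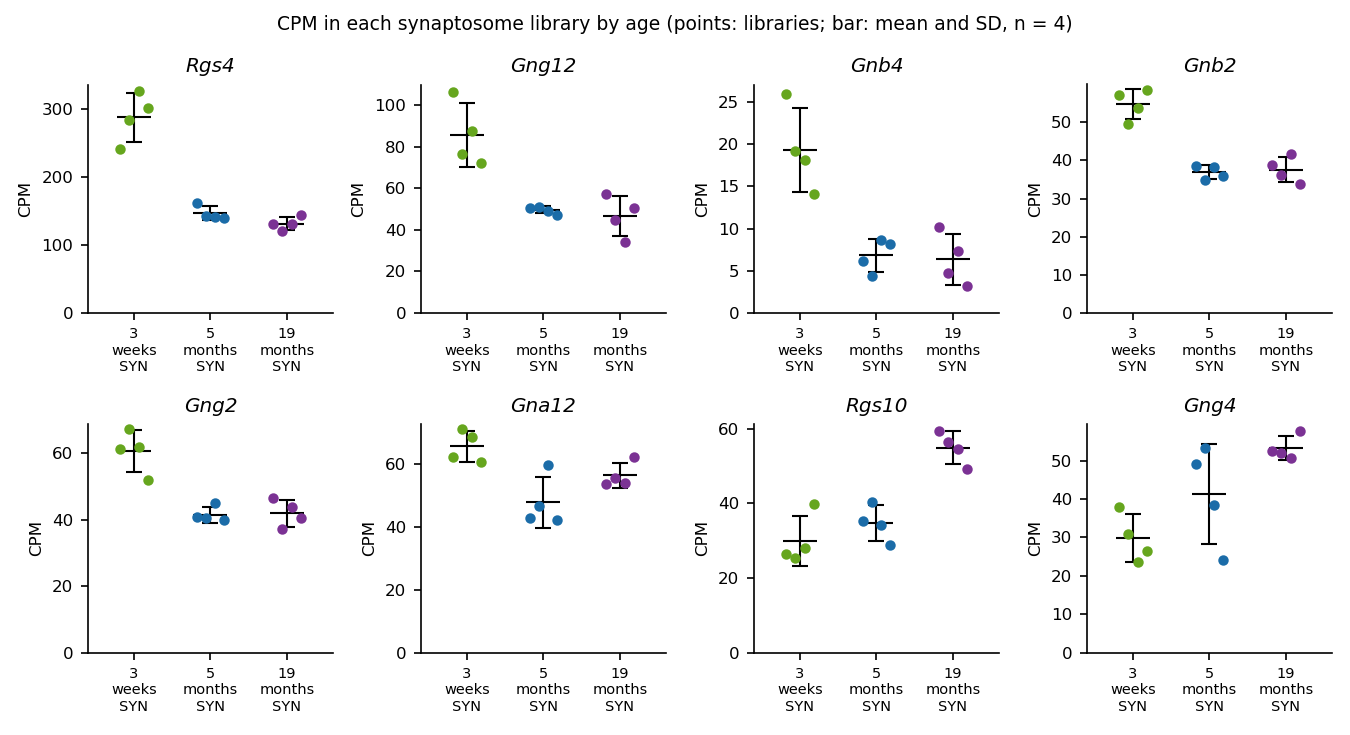
CPM in each SYN library at 3 weeks (green), 5 months (blue) and 19 months (purple) for 8 members, on linear axes from 0, with the mean and SD of 4 libraries. All points of 3 weeks lie above all later points for Rgs4, Gng12, Gnb4, Gnb2 and Gng2, while all 19 months points of Rgs10 lie above the points of 5 months.

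Gng12 and Gnb4 also fell. Gng12 had 106, 76.4, 87.7 and 72.0 CPM at 3 weeks, 50.7, 51.2, 49.3 and 47.3 CPM at 5 months, and 57.2, 44.7, 34.3 and 50.4 CPM at 19 months. Its level was 1.70-fold lower at 5 months (log2 -0.76, SE 0.13, edgeR adjusted p = 7.9e-05) and 1.82-fold lower at 19 months (log2 -0.86, SE 0.13, edgeR adjusted p = 2.3e-05) than at 3 weeks. The level of Gnb4 went from 26.0, 19.1, 18.1 and 14.1 CPM at 3 weeks to 6.16, 4.39, 8.65 and 8.15 CPM at 5 months and 10.1, 4.69, 7.40 and 3.19 CPM at 19 months. This was the largest change with age among the called members, 2.76-fold lower at 5 months (log2 -1.47, SE 0.27, edgeR adjusted p = 0.000619) and 3.02-fold lower at 19 months (log2 -1.59, SE 0.28, edgeR adjusted p = 0.000412). Oligodendrocyte markers (8 genes) summed to 7276 to 10149 CPM at 3 weeks, 2231 to 2764 CPM at 5 months and 2236 to 3129 CPM at 19 months, and all 8 were lower at both later ages. The 6 markers of their precursors summed to 338 to 389, 131 to 148 and 133 to 166 CPM, and 6 and 5 of them were lower. No marker of either list was at 0, and their part in these falls was not tested.

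Smaller falls were called for Gnb2 and Gng2. Gnb2, a widely expressed beta subunit, had 57.2, 49.6, 53.7 and 58.4 CPM at 3 weeks, 38.4, 34.9, 38.4 and 36.0 CPM at 5 months, and 38.7, 36.1, 41.6 and 33.9 CPM at 19 months. The fall to 5 months was 1.46-fold (log2 -0.54, SE 0.10, edgeR adjusted p = 0.000206), and the difference between 19 months and 3 weeks 1.44-fold (log2 -0.53, SE 0.10, edgeR adjusted p = 0.000349). For Gng2, a gamma subunit common in brain, the levels were 61.1, 67.2, 62.0 and 52.0 CPM at 3 weeks, 40.7, 40.4, 45.1 and 39.8 CPM at 5 months, and 46.5, 37.2, 43.8 and 40.4 CPM at 19 months. Both later ages lay below 3 weeks without overlap (log2 -0.52, SE 0.10 in each, edgeR adjusted p = 0.000452 and 0.000624). Gnb1, the partner of many gamma subunits, was not called at either age, with 385 to 466 CPM at 3 weeks, 378 to 429.6 CPM at 5 months and 395 to 435 CPM at 19 months.

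Alpha genes changed little with age. At 5 months against 3 weeks, 1 of 12 tested was higher and 1 lower. Gna12 fell from 62.0, 71.0, 68.6 and 60.6 CPM to 42.7, 46.5, 59.5 and 42.3 CPM (1.35-fold, log2 -0.44, SE 0.11, edgeR adjusted p = 0.00384), and it had 53.5 to 62.3 CPM at 19 months, where it was not called against either earlier age. Gnal had 187, 172, 156 and 174 CPM at 3 weeks and 185, 196, 207 and 217 CPM at 5 months (log2 0.25, SE 0.09, edgeR adjusted p = 0.0395). That call was lost without any 1 of 3 weeks SYN replicates 2, 3 and 4 or 5 months SYN replicates 2, 3 and 4 (adjusted p from 0.0549 to 0.16), without both libraries that stood apart (adjusted p = 0.106), with no filter (adjusted p = 0.0871), with all 16 libraries in the fit (adjusted p = 0.0515) and with the total outside mitochondrial rRNA (adjusted p = 0.0676). Gnas had 522, 529.8, 491 and 491 CPM at 3 weeks and 437, 417, 424 and 421 CPM at 19 months (log2 -0.24, SE 0.08, edgeR adjusted p = 0.0281). That call was lost without 3 weeks SYN replicate 2 or 3 or 19 months SYN replicate 2, 3 or 4 (adjusted p from 0.0519 to 0.0771), with only the 8 libraries compared (adjusted p = 0.0517) and with the total outside mitochondrial rRNA (adjusted p = 0.0564). At 5 months against 3 weeks Gnas was not called (log2 -0.19, edgeR adjusted p = 0.0788), though it was in the DESeq2 Wald test (adjusted p = 0.00753), with all 16 libraries in the fit (adjusted p = 0.0339) and with the total outside mitochondrial rRNA (adjusted p = 0.0397). No Gi/o or Gq alpha gene was called in any of the 3 comparisons in edgeR, with unadjusted p under 0.05 for Gnai3 at 5 months and Gnao1 at 19 months against 3 weeks. Gnai3 was called lower without 5 months SYN replicate 4 (adjusted p = 0.0385). Gnao1 was called lower in the DESeq2 Wald test (adjusted p = 0.0338) and with all 16 libraries in the fit (adjusted p = 0.0493).

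The transcript that rose late was Rgs10. It had 26.4, 25.4, 28.0 and 39.9 CPM at 3 weeks, 35.3, 40.4, 34.1 and 28.7 CPM at 5 months, and 59.4, 56.5, 54.6 and 49.1 CPM at 19 months. Every library of 19 months lay above all 8 others, and the level was 1.86-fold that of 3 weeks (log2 0.89, SE 0.13, edgeR adjusted p = 1.22e-05). At 5 months against 3 weeks it was not called (log2 0.23), though it was without 3 weeks SYN replicate 4 (log2 0.40, adjusted p = 0.0146). Against 5 months, the level of 19 months was 1.58-fold higher (log2 0.66, SE 0.13, edgeR adjusted p = 0.0222). That call held without 5 months SYN replicate 2 and was lost without any 1 of the other 7 libraries (adjusted p from 0.0506 to 0.0973), and without both libraries that stood apart it was 0.54 (adjusted p = 0.168). Microglia markers (10 genes, none at 0) summed to 153 to 228 CPM at 3 weeks, 220 to 256 CPM at 5 months and 269.98 to 412 CPM at 19 months. Of these 10, 6 were higher at 19 months than at 3 weeks and 1 was higher than at 5 months, and their part in the rise of Rgs10 was not tested.

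Gng4, a gamma subunit of neurons, was the other gene higher at 19 months. It had 38.0, 30.9, 23.7 and 26.6 CPM at 3 weeks, 49.1, 53.4, 38.3 and 24.1 CPM at 5 months, and 52.4, 52.0, 50.6 and 57.8 CPM at 19 months. The oldest libraries lay close together and above all of 3 weeks (1.81-fold, log2 0.86, SE 0.19, edgeR adjusted p = 0.00397), while those of 5 months spanned both levels. At 5 months against 3 weeks Gng4 was not called (log2 0.49, edgeR adjusted p = 0.0688), but it was called without 5 months SYN replicate 4 (log2 0.68, adjusted p = 0.000559) or 3 weeks SYN replicate 1 (log2 0.63, adjusted p = 0.0377), with no filter (adjusted p = 0.000833), in the DESeq2 Wald test (adjusted p = 0.0401) and with the replicate number as a block (adjusted p = 0.0395). The olfactory sensory neuron markers summed to 2.60 to 7.51 CPM at 3 weeks, 16.4 to 31.7 CPM at 5 months and 30.3 to 41.3 CPM at 19 months, with 4 and 3 of 6 tested higher at the later ages, and none was at 0 in a whole group. Gnal, which is known from these cells, was called higher at 5 months against 3 weeks (log2 0.25, edgeR adjusted p = 0.0395), with the limits given above. Gng13, also known from them, was not called there, and neither gene was called between 19 months and 3 weeks. The part of these cells in the levels of Gng4, Gng13 and Gnal was not tested.

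The other called age differences were small or lay at low counts. Gng3 had 38.6, 34.2, 34.1 and 44.2 CPM at 3 weeks and 26.1, 31.0, 26.8 and 29.6 CPM at 19 months (log2 -0.39, SE 0.12, edgeR adjusted p = 0.0168), and the call was lost without 3 weeks SYN replicate 4 (adjusted p = 0.0857), 19 months SYN replicate 1 (adjusted p = 0.0569), 19 months SYN replicate 3 (adjusted p = 0.0544) or both libraries that stood apart (adjusted p = 0.0525). Rgs7 had 47.8, 41.0, 52.8 and 40.4 CPM at 3 weeks and 36.7, 31.9, 36.8 and 27.1 CPM at 19 months (log2 -0.44, SE 0.12, edgeR adjusted p = 0.00756), with an adjusted p of 0.0514 without 3 weeks SYN replicate 3. Rgs17, an RZ group regulator of Gi/o, had 74.8, 71.4, 59.4 and 59.5 CPM at 3 weeks and 55.5, 58.6, 50.1 and 49.9 CPM at 19 months (log2 -0.29, SE 0.10, edgeR adjusted p = 0.0356). That call was lost without 3 weeks SYN replicate 1 or 2 or 19 months SYN replicate 1, 3 or 4 (adjusted p from 0.051 to 0.116), without both libraries that stood apart (adjusted p = 0.0562), with upper-quartile scaling (adjusted p = 0.054), with the total outside mitochondrial rRNA (adjusted p = 0.0711) and with only the 8 libraries compared (adjusted p = 0.0551).

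Rgs20 was called lower at both later ages. It had 28.5, 20.9, 24.8 and 19.8 CPM at 3 weeks, 17.5, 18.8, 15.6 and 18.1 CPM at 5 months (log2 -0.40, SE 0.14, edgeR adjusted p = 0.0403) and 18.9, 16.8, 19.3 and 13.1 CPM at 19 months (log2 -0.45, SE 0.14, edgeR adjusted p = 0.0263). Without 3 weeks SYN replicate 1, its highest library, neither was called (log2 -0.29, adjusted p = 0.148, and log2 -0.34, adjusted p = 0.109). The 5 months call was lost also without 3 weeks SYN replicate 3 or 5 months SYN replicate 1, 3 or 4 (adjusted p from 0.0559 to 0.111), without both libraries that stood apart (adjusted p = 0.0598), in the DESeq2 Wald test (adjusted p = 0.0503) and with only the 8 libraries compared (adjusted p = 0.0512), and the 19 months call without 3 weeks SYN replicate 3 or 19 months SYN replicate 2 or 4 (adjusted p from 0.0632 to 0.115). Rgs11 had 1.63, 1.57, 1.302 and 1.41 CPM at 3 weeks and 2.50, 2.38, 2.26 and 3.75 CPM at 5 months (log2 0.91, SE 0.32, edgeR adjusted p = 0.0371). It was not called without any 1 of the 4 libraries of 3 weeks, or without 5 months SYN replicate 4 (adjusted p from 0.0513 to 0.136 over these 5), nor without both libraries that stood apart (log2 0.71, adjusted p = 0.146), with no filter (adjusted p = 0.0862), with only the 8 libraries compared (adjusted p = 0.0541) or with the replicate number as a block (adjusted p = 0.0514). At 19 months Rgs11 had 1.92 to 3.35 CPM and was not called against 3 weeks (log2 0.87, edgeR adjusted p = 0.0597). It was called higher with all 16 libraries in the fit (adjusted p = 0.0161), with only the 8 libraries compared (adjusted p = 0.0450) and without 19 months SYN replicate 4 (log2 0.99, adjusted p = 0.0482).

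Of 20 tested effectors, 8 were higher and 0 lower at 5 months than at 3 weeks, with a median log2 fold change of 0.22. That was 40% of them, against 24.6% of all genes called. At 19 months against 3 weeks 4 were higher and 1 lower, or 25%, near the 19.4% of all genes, and the lower one was Prex2 (log2 -0.55, SE 0.10, edgeR adjusted p = 0.000385). Adcy9 (log2 0.57, SE 0.11, edgeR adjusted p = 0.00026) and Adcy1 (log2 0.49, SE 0.10, edgeR adjusted p = 0.000464) were among those higher at 5 months. Of 19 regulators and partners, 5 were higher and 1 lower at each later age against 3 weeks, which was 31.6% of them. Between 19 and 5 months edgeR called 0 effectors and 0 regulators in either direction. An unadjusted p under 0.05 in edgeR was found for 3 effectors and 5 regulators, against 2103 of all 15344 genes tested. Rgs7bp, which anchors the R7 group to the membrane, was higher at 5 months (log2 0.42, SE 0.08, edgeR adjusted p = 0.000576).

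Promoter sequences of 39 members were found in the RefSeq table (GRCm38.p6). They are shown for Rgs4 and Gng12, whose levels fell after 3 weeks, and for Rgs10, whose level rose by 19 months. Each stretch is the 250 bases before the RefSeq start. The Rgs10 stretch lies inside the counted gene, which reaches chr7:128418758 at its 5′ end. Capitals mark the motifs searched on both strands. The GC box was searched as GGGCGG. The TATA box was searched as TATAAA. The core of the cAMP response element was searched as TGACG.
Rgs4, chr1:169747643-169747892, minus strand: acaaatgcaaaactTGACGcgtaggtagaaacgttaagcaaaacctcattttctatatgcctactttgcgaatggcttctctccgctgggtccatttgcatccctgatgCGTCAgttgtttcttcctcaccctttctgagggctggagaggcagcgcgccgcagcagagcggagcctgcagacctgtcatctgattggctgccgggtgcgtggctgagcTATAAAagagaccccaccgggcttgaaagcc
Gng12, chr6:66896147-66896396, plus strand: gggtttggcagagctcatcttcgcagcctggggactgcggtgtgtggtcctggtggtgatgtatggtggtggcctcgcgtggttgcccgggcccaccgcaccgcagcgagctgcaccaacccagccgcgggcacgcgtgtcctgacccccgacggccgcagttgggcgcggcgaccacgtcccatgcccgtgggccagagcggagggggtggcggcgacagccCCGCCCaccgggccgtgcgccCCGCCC
Rgs10, chr7:128418173-128418422, minus strand: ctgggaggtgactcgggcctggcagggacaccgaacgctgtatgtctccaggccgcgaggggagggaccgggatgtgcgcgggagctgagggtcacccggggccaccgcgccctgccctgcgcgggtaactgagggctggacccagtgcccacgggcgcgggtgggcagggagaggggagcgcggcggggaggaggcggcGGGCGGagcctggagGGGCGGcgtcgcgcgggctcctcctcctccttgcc

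The Rgs4 stretch held 1 TATA box and 2 response element matches and no GC box, and 53.6% of its bases were G or C. Gng12 and Rgs10 each held 2 GC box matches and neither of the other motifs, and 74.4% and 76.4% of their bases were G or C, against a median of 52% over 27025 promoters of the same length. Over those promoters 32.9% held the GC box, 13% the TATA box and 17.9% the response element core. Of the 39 members 46.2%, 12.8% and 15.4% did. The motifs did not overlap each other in these 3 stretches, and a match is a match of letters and not a shown binding site.

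Splicing of these genes was compared between ages in the authors' deposited LeafCutter table, which groups introns that share a splice site into clusters and gives each intron's share of its cluster. It listed 23 clusters of member genes and tested 19 of them in each comparison. At the authors' adjusted p under 0.05, 1 member cluster was called at 5 months against 3 weeks (background 6.61%), 0 at 19 months against 5 months (background 0.768%, with 3 member clusters at an unadjusted p under 0.05) and 1 at 19 months against 3 weeks (background 4.81%), in the authors' deposited table. At an adjusted p under 0.01 none of the member clusters in the authors' deposited table was called.

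In Gnb1, a 49-base exon at chr4:155515631-155515679 lies in the 5′ untranslated region of both annotated transcripts that hold it. The intron that skips this exon made up 15.7% of its cluster at 3 weeks and 11.2% at 5 months in the authors' deposited table (adjusted p = 0.0126). Each adjusted p is that of a whole cluster and not of 1 intron. The most used intron into the exon went from 47.4% to 51.9%, and the intron out of it from 36.2% to 36.3%. At 19 months it made up 13.1%, and the authors' deposited table gives an adjusted p of 0.0565 against 3 weeks. In Gng12, the exon at chr6:66943825-66943877 is 53 bases long and holds no coding sequence. The intron that skips it made up 52.3% of its cluster at 3 weeks and 64.1% at 19 months in the authors' deposited table (adjusted p = 0.0316), and 55.3% at 5 months (adjusted p = 0.505 against 3 weeks in the authors' deposited table). Both called events thus lay ahead of the coding sequence.

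**Figure D4:**
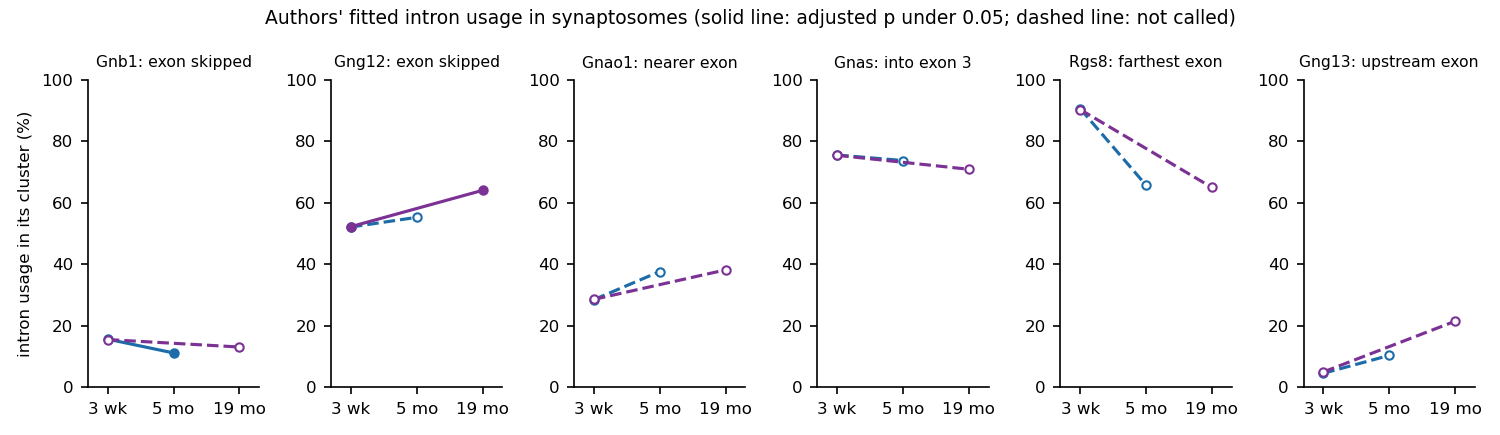
Share of 1 intron in its cluster at 3 weeks, 5 months and 19 months of SYN, in percent, for 6 members, as fitted in the authors' deposited LeafCutter table with no error given. Blue lines join the comparison of 5 months and purple lines that of 19 months with 3 weeks, and solid lines mark the 2 called clusters, Gnb1 at 5 months and Gng12 at 19 months.

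The clusters of Gnao1, Gnas, Rgs8 and Gng13 were not called and were chosen after their values were seen. The first is a choice between coding exons. Gnao1 transcripts take 1 of a pair of exons as their seventh, 154 bases each, at a nearer and a farther site, which is the origin of the splice forms of Go that differ at their carboxyl end. The exons are printed in full (GENCODE vM21 transcripts, GRCm38, plus strand), with capitals at the 29 bases that differ. The other 125 bases are identical (81.2%).
Nearer exon, chr8:93953975-93954128: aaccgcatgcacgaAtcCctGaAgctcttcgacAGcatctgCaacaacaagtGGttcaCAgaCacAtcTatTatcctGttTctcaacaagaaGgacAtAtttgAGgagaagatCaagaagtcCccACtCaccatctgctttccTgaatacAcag
Farther exon, chr8:93963384-93963537: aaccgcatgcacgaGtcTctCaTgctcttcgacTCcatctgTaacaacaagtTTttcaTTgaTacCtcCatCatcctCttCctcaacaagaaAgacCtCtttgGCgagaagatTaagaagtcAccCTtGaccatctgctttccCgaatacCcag

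The nearer exon took 28.5% of the cluster at 3 weeks and 37.7% at 5 months in the authors' deposited table (adjusted p = 0.0916). In the comparison of 19 months with 3 weeks the shares were 38.2% and 28.6% (adjusted p = 0.227 in the authors' deposited table). The farther exon made up the larger share of the cluster at every age, 61.8% to 71.5% in the authors' deposited table.

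Gnas exon 3, 45 bases or 15 codons, is skipped or kept in the long and short forms of the stimulatory alpha subunit. It is shown with exon 4 in its longer form, in which capitals mark 3 extra bases at the start that come from an earlier acceptor site.
Gnas exon 3, chr2:174336747-174336791, plus strand: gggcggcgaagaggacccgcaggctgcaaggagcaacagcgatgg
Gnas exon 4, longer form, chr2:174341650-174341707, plus strand: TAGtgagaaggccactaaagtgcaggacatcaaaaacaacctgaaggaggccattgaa
The intron into exon 3 made up 75.5% of the cluster at 3 weeks and 71.0% at 19 months, and the intron that skips exon 3 and takes the earlier acceptor 0.677% and 0.660% in the authors' deposited table (adjusted p = 0.103). At 5 months the latter stood at 1.88%, against 0.657% at 3 weeks in the same fit (adjusted p = 0.116 in the authors' deposited table). The intron into exon 3 thus took the largest share of the cluster at all 3 ages, 73.8% at 5 months. The most used intron out of exon 3 had 20.4% at 3 weeks and 20.9% at 5 months in the authors' deposited table. These are fitted shares and not counts of reads, and they do not give how often exon 3 was kept.

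A further pair of members differed in their first exons without a call. In Rgs8, the intron from the farthest first exon went from 90.7% at 3 weeks to 65.8% at 5 months in the authors' deposited table (adjusted p = 0.0611), and the comparison with 19 months gave 90.4% and 65.0% (adjusted p = 0.0697 in the authors' deposited table). In Gng13, the upstream first exon had 5.02% at 3 weeks and 21.5% at 19 months in the authors' deposited table (adjusted p = 0.0715). The authors' deposited DIEGO table, a second splicing method, listed 238 to 249 junctions of 30 members per comparison, and 2 of them, both of Gng13 at 19 months against 3 weeks, had a q under 0.05 (0.0489 each, against a share of 0.69% of all junctions), while none was marked significant there.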

How the data were processed

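The authors' deposited table holds raw counts per gene for 16 libraries. The submitters' processing notes name bcl2fastq 2.20.0.422, Trimmomatic 0.38, cutadapt 1.18 and Subread's featureCounts, with the build GRCm38.p6. Aligner, annotation release and strand setting: not given in the sources used here. Libraries came from 10 ng of RNA with a stranded total RNA kit, per the labels' protocols. The authors' deposited LeafCutter tables give p-values per cluster and usage fractions per intron, and their DIEGO tables p-values and q-values per junction, per the file headers.

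Genes were filtered with filterByExpr, scaled by TMM and then compared in edgeR 4.0.16 (R 4.3.3, robust quasi-likelihood F test), with Benjamini-Hochberg adjustment over all genes tested and calls at 0.05. SYN against TH used 8 libraries and the ages the 12 SYN libraries. Printed CPM carry no prior count. Depth of 10.6 M to 21.7 M counts limits the members with few counts. The TH libraries are not said to come from separate animals, so p-values against TH measure the spread between these libraries, which may be technical. The alternatives were DESeq2 1.42.0 size factors and its Wald test, upper-quartile scaling, the total outside mitochondrial rRNA with no TMM factors (chosen after seeing the data), other filters, a replicate block, other sets of libraries and each library left out. The fits were tested on simulated data. Exons in the splicing part come from GENCODE vM21, and exon overlaps and exon lengths from the coordinates deposited with the counts. A marker symbol with more than 1 identifier was taken as the one with most counts. All members could be named, and values per library are given for called members with a mean of at least 5 CPM in 1 group. Members, lists and tests were chosen with earlier results of these data known.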

Additional observations from a re-analysis of the deposited data

Results flagged for a closer look

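In 6 of 144 groups of 4 libraries checked, over 36 members, 1 library lay far from the other 3, where chance gives about 1 group in 20. Gnas was lowest in 5 months TH replicate 1, at 293 CPM against 324 to 328 CPM in the other TH libraries. Gna13 was highest in 5 months TH replicate 4, at 32.3 CPM against 25.5 to 26.0 CPM. Gng7 was lowest in 5 months SYN replicate 1, at 138 CPM against 159 to 162 CPM. Rgs4 was highest in that same library, at 162 CPM against 140.2 to 143 CPM. Rgs3 was highest in 5 months TH replicate 1, at 9.90 CPM against 8.82 to 8.98 CPM. Rgs11 was highest in 5 months SYN replicate 4, at 3.75 CPM against 2.26 to 2.50 CPM, and this is the library with the high Malat1 level. The causes were not tested.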

How the results depend on the processing

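Of 48 called member differences, 28 kept their call and direction under every alternative run, 20 lost the call under at least 1, and 2 of these changed direction under the total outside mitochondrial rRNA, a scaling chosen after seeing the data: Gnao1 (-0.15) and Gnaq (-0.21) in SYN against TH. Under that scaling 8 members were higher and 20 lower in SYN than in TH, and 1 was higher at 5 months than at 3 weeks. The count of members higher at 5 months than at 3 weeks, 2, became 1 with no filter on low counts, with all 16 libraries in the fit, with only the 8 libraries compared and with both libraries that stood apart left out, became 3 in the DESeq2 Wald test, and ranged from 0 to 3 with 1 library left out. The count higher at 19 months than at 3 weeks, 2, became 3 with all 16 libraries and with only the 8 compared, and ranged from 2 to 3 with 1 library left out. The count higher at 19 months than at 5 months, 1, became 0 with both of those left out and ranged from 0 to 1 with 1 library left out. With 1 library left out, 15 to 16 members were higher and 8 to 12 lower in SYN than in TH, 6 to 7 were lower at 5 months and 7 to 9 lower at 19 months than at 3 weeks. At the authors' adjusted p under 0.01, the splicing clusters called went from 1 to 0 at 5 months and at 19 months against 3 weeks. The causes were not tested.

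The labels do not say that a replicate number marks 1 animal, though the deposited column names give SYN and TH libraries of the same number a shared sample number. Whether these numbers pair the samples was not settled, and the main fit used no pairing. After group means were removed, SYN and TH libraries of the same number at 5 months correlated at 0.0867, 0.0156, 0.0143 and 0.134. Of the 4, 2 correlated best with their own number, and 4 libraries per group are too few to decide the question. With a replicate block, 16 members were higher and 11 lower in SYN, with Gng4 (log2 0.63, edgeR adjusted p = 0.000195) and Rgs7 added and Rgs19 lost. Over all genes the block called 4152 higher and 4402 lower in SYN. Counts of members under the block were 2 higher and 7 lower at 5 months against 3 weeks, where all genes gave 2144 and 1926. At 19 months against 5 months they were 1 and 0, where all genes gave 124 and 140, against 20 and 26 in the main fit. At 19 months against 3 weeks they were 2 and 10, where all genes gave 1752 and 1642.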
